A study of Mus musculus with 23 samples.

Results

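The effect of losing *Bhlhe40* was compared between 2 brain regions of the same mice. For each gene the difference between *Bhlhe40* KO and WT mice was taken in hippocampus and in cortex, and the cortical difference was subtracted from the hippocampal one. This value is called the contrast below. It is on a log2 scale, and a contrast above 0 means that the KO level, relative to WT, was higher in hippocampus than in cortex. The 16 arrays of these tissues out of 23 in the series were used, 4 WT and 4 *Bhlhe40* KO arrays in each tissue, and 9419 genes detected in at least 3 arrays of each tissue were tested. The 8 mice were naïve males, aged 3 to 5 months, fasted overnight and killed in the late morning or around midday, and each gave 1 hippocampus and 1 cortex. The KO mice carried a null *Bhlhe40* allele backcrossed to C57Bl/6, so the gene was missing in both tissues. In such a line a stretch of donor chromosome can remain around the targeted gene, and the labels do not pair WT with KO mice.

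Bhlhe40 is a basic helix-loop-helix repressor of the circadian and activity-dependent gene programs. It binds the palindromic E-box CACGTG, the site that CLOCK and BMAL1 also use, and it is induced by neuronal activity in hippocampus and cortex. Pyramidal neurons of both regions use glutamate, and their firing is set by potassium, sodium and calcium channels, by AMPA and GABA receptors and by the proteins that release synaptic vesicles. A contrast of this kind asks which genes respond to the loss of the same factor in one region and not, or less, in the other.

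The targeted gene was low in every KO array. The signal of the *Bhlhe40* probe was 4357.5, 4213.5, 2756.7 and 3359.1 in WT hippocampus and 323.6, 227.7, 279.7 and 465.4 in KO hippocampus. In cortex it was 4443.3, 4211.2, 4156.4 and 4633.3 in WT mice and 210.3, 219.9, 250.5 and 260.6 in KO mice. The groups were far apart in both tissues. The probe was still called detected in all 8 KO arrays. The KO effect was -3.70 in hippocampus and -4.15 in cortex on the log2 scale, and its contrast of 0.45 ± 0.14 (SE) did not pass the test (limma, adjusted p = 0.0554).

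Of the 9419 genes, 234 (2.48%) had a contrast above 0 and 211 (2.24%) a contrast below 0 at an adjusted p under 0.05 (limma, two-sided, Benjamini-Hochberg over all genes, with the mouse as a random block). Their median contrast was 0.52, or 1.43-fold, among the higher genes and -0.53 among the lower genes, against 0.02 over all genes. A contrast over 1.5-fold was reached by 66 of the higher and 58 of the lower genes. At an unadjusted p under 0.05 there were 1314 higher and 1121 lower genes, and the smallest adjusted p was 0.0201.

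The number of calls depended on single mice. Without WT mouse 4 no gene passed in either direction (limma, smallest adjusted p = 0.0704), although 1066 higher and 914 lower genes had an unadjusted p under 0.05. Without WT mouse 2 there were 5 higher genes (*Gabarap*, *Lurap1l*, *Bckdha*, *Ccl21b* and *Smpdl3a*, named here after their values were seen) and 10 lower genes. Without KO mouse 2 there were 24 and 33, and without KO mouse 4 there were 30 and 32. Without KO mouse 1 the counts were 684 higher and 518 lower. The counts were 194 and 152 without WT mouse 1, 128 and 163 without WT mouse 3, and 95 and 125 without KO mouse 3.

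**Figure D1:**
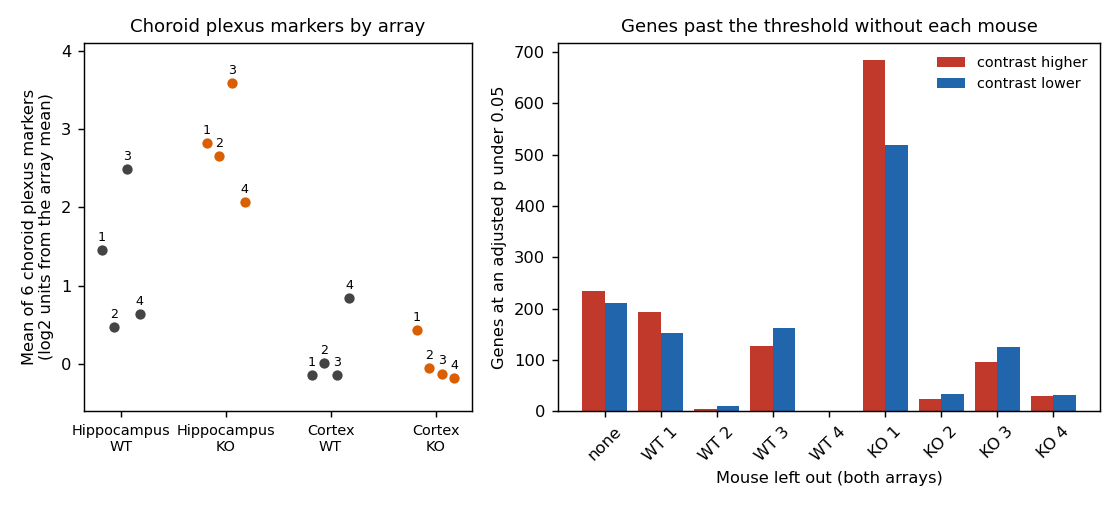
Left, the mean level of 6 choroid plexus markers in each of the 16 arrays, in log2 units from the mean of the array, with the number of the mouse beside each point. Right, the number of genes with a contrast above 0 (red) and below 0 (blue) at an adjusted p under 0.05 when both arrays of 1 mouse are left out, from 0 without WT mouse 4 to 684 and 518 without KO mouse 1; "none" has all 8 mice.

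The KO effect was larger in size in hippocampus than in cortex in 195 of the higher and 147 of the lower genes. In the same fit 539 genes (5.72%) were higher and 346 (3.67%) lower in KO than in WT hippocampus, against 14 higher (0.149%) and 14 lower (0.149%) in cortex. Of the genes with a higher contrast, 160 passed in hippocampus alone, 4 in cortex alone and 70 in neither tissue. Of the 211 with a lower contrast, 128 passed in hippocampus alone, 6 in cortex alone, 1 in both and 76 in neither. The KO effect had opposite signs in the tissues, up in one and down in the other, in 228 of the higher and 209 of the lower genes, which a contrast of 2 differences favours by its construction. The median KO effect of the higher genes was 0.36 in hippocampus and -0.16 in cortex. That of the lower genes was -0.31 in hippocampus and 0.20 in cortex.

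**Figure D2:**
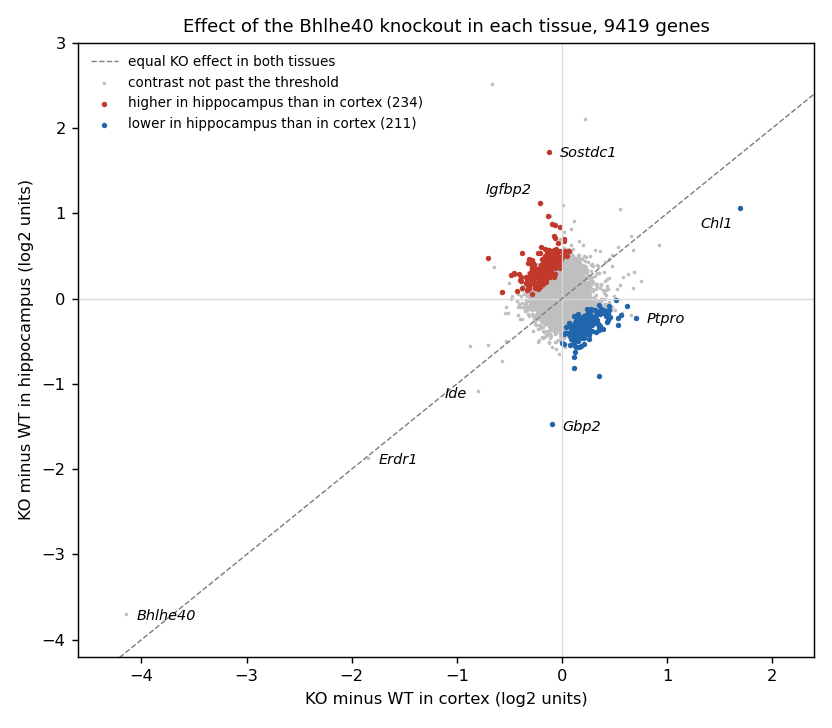
The KO effect in cortex (horizontal) and in hippocampus (vertical) for each of the 9419 genes, in log2 units. Red and blue points passed the test of the contrast (234 above and 211 below the dashed line of equal effect); *Bhlhe40* (-4.15 and -3.70) and *Erdr1* lie near the line, and *Gbp2* and *Sostdc1* lie far from it.

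Each mouse gave both tissues, so the hippocampus minus cortex difference of 1 mouse could be set beside that of another. In 634 genes (6.73%) all 4 KO mice lay above all 4 WT mice in this difference, and in 605 genes (6.42%) they lay below. Among genes past the test, 171 of the 234 higher and 178 of the 211 lower genes had mice that did not overlap. The first principal component of the differences held 41.4% of their variance and ran from -20.9 to -5.06 in WT mice and from 0.237 to 17.5 in KO mice. KO mouse 1, at 0.237, lay nearest to the WT mice.

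*Gbp2*, an interferon-induced guanylate-binding GTPase, had the most negative contrast of all genes past the test. Its level, in log2 units from the mean of the array, was 1.49, 0.39, 2.11 and 0.87 in WT hippocampus and -0.15, -0.41, -0.32 and -0.14 in KO hippocampus. In cortex it was -0.31, -0.51, -0.27 and -0.14 in WT mice and -0.31, -0.52, -0.31 and -0.48 in KO mice. The WT hippocampi were thus above every other array, and no KO hippocampus lay more than slightly above the cortical levels. The contrast was -1.37 ± 0.28 (SE), with a KO effect of -1.47 in hippocampus and -0.10 in cortex (limma, contrast adjusted p = 0.0201). The adjusted p was 0.0704 without WT mouse 4 and between 0.00612 and 0.0491 without each other mouse. *Gbp2* was also the 1 gene that passed with a lower contrast when the level of choroid plexus markers was a covariate.

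Auxiliary and pore-forming subunits of ion channels were among the genes with the most negative contrast. *Cacna2d1* encodes the alpha2delta-1 subunit, which carries calcium channels to the membrane. The hippocampus minus cortex difference of *Cacna2d1* was 0.45, 0.08, -0.62 and 0.28 in WT mice and -0.91, -0.82, -0.85 and -0.94 in KO mice. The KO mice were nearly alike, and mouse 3 was the lowest of the WT mice. Its contrast was -0.93 ± 0.20 (limma, adjusted p = 0.0201), almost all of it from a KO effect of -0.81 in hippocampus. The other 15 calcium channel subunits tested did not pass, and the median of the 16 was -0.11.

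*Kcnd2* encodes Kv4.2, a channel of the dendritic A-type potassium current. For *Kcnd2* the tissue difference was 0.39, 0.81, 0.59 and 0.50 in WT mice and 0.04, -0.04, -0.55 and -0.07 in KO mice. Its contrast was -0.73 ± 0.15 (limma, adjusted p = 0.0201), with a hippocampal KO effect of -0.57. *Kcnab1*, an auxiliary beta subunit of Kv1 channels, had a contrast of -0.69 (limma, adjusted p = 0.0345). The tissue difference of *Kcnab1* was 0.17, 0.71, 0.32 and 0.35 in WT mice and 0.01, -0.84, -0.60 and 0.21 in KO mice. KO mouse 4 overlapped WT mouse 1, and neither the hippocampal KO effect of -0.34 nor the cortical one of 0.35 passed. In the paper's qRT-PCR of hippocampus, *Kcnab1* was higher in KO mice. There *Ide* was the only gene significantly lower, among genes that included *Cacna2d1*, *Kcnd2* and *Kcnma1*. *Kcnma1*, the pore of the BK calcium-activated channel, had a contrast of -0.55 (limma, adjusted p = 0.0342). *Kcnmb4*, a beta subunit of the same BK channel, went the other way at 0.39 (limma, adjusted p = 0.0401), while its 2 other probes read 0.40 and 0.28 and did not pass. Of 52 potassium channel genes tested, 1 was higher and 3 were lower, against 2.48% and 2.24% of all genes. The median of the 52 was -0.06. None of 5 sodium channel subunits passed (limma, 2 lower at an unadjusted p under 0.05), although only 1 was above 0 and the median was -0.35. The 2 with the smallest p were *Scn3b* at -0.43 and *Scn8a*, the Nav1.6 channel, at -0.40 (limma, adjusted p = 0.0630 and 0.0736). A second probe of *Scn3b* read -0.75 and passed (limma over all probes, adjusted p = 0.0127).

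Of 8 GABA receptor genes, *Kctd12* and *Gabbr1* had lower contrasts, against 2.24% of all genes, and the median of the 8 was -0.24. *Kctd12* is an auxiliary subunit of the GABA-B receptor that speeds its desensitization. The tissue difference of *Kctd12* was 1.34, 1.33, 1.03 and 1.35 in WT mice and 0.81, 0.32, 0.16 and 0.79 in KO mice. Hippocampus exceeded cortex in all 8 mice, and it did so by less in every KO mouse than in any WT mouse. The contrast was -0.74 ± 0.14 (limma, adjusted p = 0.0201), with a KO effect of -0.35 in hippocampus and 0.39 in cortex, where it did not pass. *Gabbr1*, the subunit that binds GABA, had a contrast of -0.53 ± 0.13 (limma, adjusted p = 0.0296). Its hippocampal KO effect on the arrays was -0.36. The paper's qRT-PCR of hippocampus, with these mice among its samples, instead reported *Gabbr1* higher in KO mice. Its blots of hippocampus reported more Kctd12 protein in KO mice and no significant difference in Gabbr1 protein.

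Among receptors for glutamate, 1 of 19 ionotropic subunits and their partners passed with a lower contrast, against 2.24% of all genes. This was *Gria1*, an AMPA receptor subunit that hippocampus expresses more than cortex. In *Gria1* the tissue difference was 1.55, 1.52, 1.31 and 1.99 in WT mice and 0.91, 1.47, 0.84 and 0.63 in KO mice, and KO mouse 2 overlapped the WT mice. The contrast was -0.63 ± 0.18 (limma, adjusted p = 0.0443), and of its other probes one read -0.55 and passed and one read -0.43 and did not (limma over all probes, adjusted p = 0.0443 and 0.0839). The hippocampal KO effect of *Gria1* on the arrays was -0.43, whereas the paper's qRT-PCR of hippocampus reported it higher in KO mice. The paper's blots found no significant difference in its protein, GluR1. *Gria3* and *Gria2* had contrasts of -0.59 and -0.37 and did not pass (limma, adjusted p = 0.0579 and 0.105), but a second probe of *Gria2* read -0.66 and passed (limma over all probes, adjusted p = 0.0126). None of 3 tested metabotropic receptor and Homer genes passed (limma, 1 lower at an unadjusted p under 0.05).

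Of 34 genes of the vesicle release machinery, 4 had a lower and none a higher contrast (limma, 12 and 2 at an unadjusted p under 0.05), with a median of -0.03. Over all 9419 genes 2.24% were lower and 2.48% higher (limma, 1121 and 1314 at an unadjusted p under 0.05). *Erc2*, an active zone scaffold, had a tissue difference of 0.14, 0.21, 0.03 and 0.06 in WT mice and -0.40, -0.49, -0.40 and -0.31 in KO mice. The difference was slightly above 0 in all WT mice, where it did not pass (limma, adjusted p = 0.314). It was below 0 in all KO mice, where it passed (limma, adjusted p = 0.000103). The contrast of *Erc2* was -0.51 ± 0.10 (limma, adjusted p = 0.0201). *Syn2*, a synapsin that tethers vesicles, and *Rims1*, which docks and primes them, both had contrasts of -0.60 (limma, adjusted p = 0.0222 and 0.0318). A second *Rims1* probe read -0.25 and did not pass (limma over all probes, adjusted p = 0.219). The other gene of the list to pass was *Syt4*, a synaptotagmin, at -0.43.

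Of 53 genes of long-term potentiation and depression signalling, 3 were lower and none higher (limma, 10 and 2 at an unadjusted p under 0.05), and the median was -0.12. The shares over all 9419 genes were 2.24% lower and 2.48% higher (limma, 1121 and 1314 genes at an unadjusted p under 0.05). The tissue difference of *Gna13*, a G protein alpha subunit, was 0.44, 0.71, 0.25 and 0.69 in WT mice and -0.05, 0.04, -0.40 and -0.46 in KO mice. The contrast of *Gna13* was -0.74 ± 0.15 (limma, adjusted p = 0.0201). *Ppp1cb*, a catalytic subunit of protein phosphatase 1, had a contrast of -0.49 and *Prkg1*, a cGMP-dependent kinase, of -0.37 (limma, adjusted p = 0.0352 and 0.0472). *Gng7*, a G protein gamma subunit abundant in striatum, is not of this list but of the striatal genes described below. It had a contrast of -0.85 that was made of a KO effect of -0.32 in hippocampus and 0.54 in cortex, neither of which passed alone (limma, contrast adjusted p = 0.0275). Its level in KO cortex was 3.03, 3.83, 3.58 and 2.99, highest in KO mice 2 and 3, whose cortex was also highest in striatal genes.

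The promoters of *Gna13* and *Gng7* are shown because they were the 2 among the 24 genes with the largest contrasts and no overlap of mice to hold the E-box CACGTG, in capitals, within the 250 bases before and 50 bases after the gene's start. RefSeq gave promoters on GRCm38.p6 for 22 of the 24.
Gna13, chr11:109362544-109362843, plus strand: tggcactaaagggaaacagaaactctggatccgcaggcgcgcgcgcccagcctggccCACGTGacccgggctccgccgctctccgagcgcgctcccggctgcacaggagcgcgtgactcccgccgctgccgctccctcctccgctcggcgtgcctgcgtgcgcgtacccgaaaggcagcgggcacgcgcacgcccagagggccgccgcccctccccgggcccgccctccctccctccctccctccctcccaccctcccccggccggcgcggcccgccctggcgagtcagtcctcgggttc
Gng7, chr10:81001316-81001615, minus strand: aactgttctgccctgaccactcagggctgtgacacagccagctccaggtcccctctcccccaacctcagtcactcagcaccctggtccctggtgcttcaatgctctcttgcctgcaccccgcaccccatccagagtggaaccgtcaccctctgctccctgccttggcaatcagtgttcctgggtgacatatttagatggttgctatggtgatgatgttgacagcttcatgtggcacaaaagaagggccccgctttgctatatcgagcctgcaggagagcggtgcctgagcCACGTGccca
In *Gna13* the E-box lay upstream of the start, and in *Gng7* it lay within the last bases of the window, after the start. The motif is its own reverse complement, so 1 search covered both strands. Of genes with a promoter in the table, 25 of 188 with a higher contrast (13.3%) and 26 of 180 with a lower contrast (14.4%) held it, against 908 of 7679 genes tested (11.8%). Both shares were near that of all genes.

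Other genes of the 12 with the most negative contrasts and no overlap of mice had varied roles. *Ptpro*, a receptor tyrosine phosphatase, had a tissue difference of 1.07, 0.27, 0.18 and 0.59 in WT mice and 0.06, -0.65, -0.50 and -0.52 in KO mice. Its contrast of -0.93 ± 0.21 (limma, adjusted p = 0.0222) came mainly from cortex, where the KO effect was 0.71 and passed (limma, adjusted p = 0.0294), against -0.23 in hippocampus. *Apaf1*, the scaffold of the apoptosome, had a contrast of -0.76 and a cortical KO effect of 0.53 that did not pass. *Rapgef5*, an exchange factor for Rap GTPases, had a contrast of -0.75 and *Dzip3*, a ubiquitin ligase, of -0.73, and for both the hippocampal KO effect passed. *Wdr13*, a WD-repeat protein encoded on the X chromosome, had a contrast of -0.73. Its tissue difference was -0.57, -0.31, -0.24 and -0.08 in WT mice and -1.03, -1.04, -1.11 and -0.95 in KO mice. A second *Wdr13* probe read 0.13 (limma over all probes, adjusted p = 0.570), so the value is that of 1 probe. *Gm7609*, at -0.75, is a predicted gene of a family of near-identical copies, and its probe may read more than 1 of them.

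**Figure D3:**
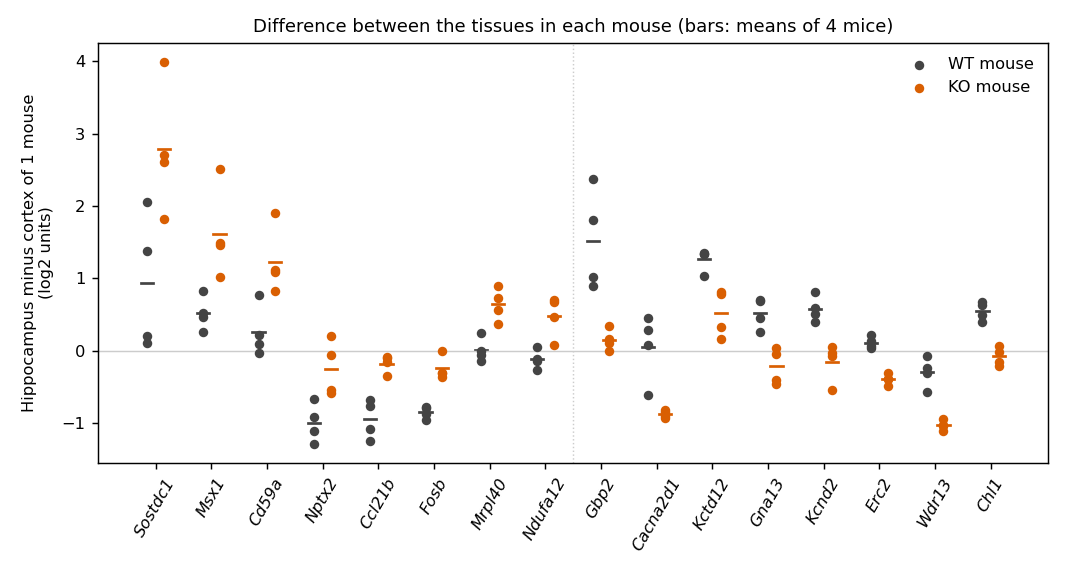
The hippocampus minus cortex difference of each mouse, in log2 units, for 8 genes with a higher contrast (left of the dotted line) and 8 with a lower contrast. Points are mice, grey for WT and orange for KO, and bars are means of 4 mice. Of the 16 genes only *Sostdc1* has overlapping genotypes. Genes named by the size of their contrast had to be free of overlap, so for them the separation follows from the choice.

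Among activity-regulated immediate early genes the calls went mainly the other way. Of 26 tested, 3 had a higher and 1 a lower contrast, against 2.48% and 2.24% of all genes. The median of the 26 was 0.30, and 21 of them were above 0. The median KO effect of the list was 0.06 in hippocampus and -0.14 in cortex. In hippocampus 4 were higher and 1 lower, and in cortex none passed (limma, 1 higher and 8 lower at an unadjusted p under 0.05). The tissue difference of *Fosb*, an AP-1 subunit, was -0.79, -0.96, -0.79 and -0.88 in WT mice and -0.31, -0.0026, -0.31 and -0.37 in KO mice. WT cortex had more *Fosb* than WT hippocampus, and this gap was smaller in all KO mice. Its contrast was 0.61 ± 0.13 (limma, adjusted p = 0.0222), with a KO effect of 0.33 in hippocampus, which passed, and -0.28 in cortex, which did not.

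*Nptx2*, the neuronal pentraxin that gathers AMPA receptors at synapses on interneurons, had a tissue difference of -1.29, -1.11, -0.66 and -0.92 in WT mice and -0.55, 0.20, -0.59 and -0.07 in KO mice. Its contrast was 0.74 ± 0.20 (limma, adjusted p = 0.0390). *Per1*, both an activity-regulated gene and a clock gene, had a contrast of 0.52 ± 0.13 (limma, adjusted p = 0.0319), and its second probe read 0.59 and passed. *Plk2*, a kinase that scales synapses down after activity, was the gene of this list with a lower contrast, -0.45 ± 0.11 (limma, adjusted p = 0.0296). *Per1* was also the 1 gene of 20 tested clock genes to pass. *Nr1d1*, which encodes the clock repressor REV-ERB alpha, had a contrast of 0.34 that did not pass (limma, adjusted p = 0.120), and the median of the clock list was -0.04. The median of the immediate early list was 0.19 without WT mouse 2 and between 0.24 and 0.34 without each other mouse.

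Genes of the mitochondrial ribosome had the largest share of calls among the lists of 20 or more genes. Of 69 tested, 12 had a higher and none a lower contrast, against 2.48% and 2.24% of all genes. At an unadjusted p under 0.05 there were 41 and 1 (limma), against 1314 and 1121 of all 9419 genes. Of the 69, 62 were above 0, and the median was 0.33. In hippocampus alone 23 of them were higher in KO mice, and in cortex none passed (limma, 1 higher and 3 lower at an unadjusted p under 0.05). *Mrpl40* had a tissue difference of 0.25, -0.01, -0.15 and -0.07 in WT mice and 0.37, 0.72, 0.56 and 0.89 in KO mice, without overlap. Its contrast was 0.63 ± 0.15 (limma, adjusted p = 0.0296). *Mrps12*, *Mrpl36* and *Mrpl13*, the next by p, had contrasts of 0.54, 0.48 and 0.48, and a second *Mrpl13* probe read 0.29 and did not pass. The calls of this list depended on the mice more than its median did. The median was between 0.28 and 0.40 without each mouse, while the number of calls was 0 without WT mouse 2, 3 or 4 or without KO mouse 2 or 4, 1 without KO mouse 3, 14 without WT mouse 1 and 32 without KO mouse 1.

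In the respiratory chain, with ATP synthase, 3 of 78 genes were higher and none lower, against 2.48% and 2.24% of all genes. At an unadjusted p under 0.05 there were 24 and 0 (limma), against 1314 and 1121 of all 9419 genes. Of the 78, 74 were above 0, and the median was 0.25. The tissue difference of *Ndufa12*, a subunit of complex I, was 0.05, -0.26, -0.11 and -0.15 in WT mice and 0.07, 0.46, 0.68 and 0.70 in KO mice. KO mouse 1 was only just above WT mouse 1. The contrast of *Ndufa12* was 0.59 ± 0.12 (limma, adjusted p = 0.0201), and *Ndufb5* and *Ndufb11*, also of complex I, had contrasts of 0.66 and 0.50. The number of calls was 30 without KO mouse 1 and between 0 and 3 without each other mouse, and the median was 0.12 without KO mouse 3 and between 0.19 and 0.37 without each other mouse. Among proteasome subunits 3 of 33 were higher, with a median of 0.14, and these were *Psmb1*, *Psma7* and *Psmd8* at 0.48, 0.43 and 0.39. Of 55 cytosolic ribosomal proteins, *Rps13* was higher at 0.49 and *Rps15a* lower at -0.51, which did not exceed the shares over all genes, 2.48% and 2.24%. The median of the 55 was 0.17, and it was 0.04 without KO mouse 3, 0.11 without WT mouse 4 or KO mouse 4 and 0.28 without KO mouse 1. These families have processed pseudogenes and close copies, which a probe may also read. None of 14 glycolysis genes passed (limma, 1 higher and 1 lower at an unadjusted p under 0.05), and their median was -0.03.

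The 12 genes with the largest contrasts above 0 and no overlap of mice included stress and chromatin proteins. *Cryab*, a small heat shock protein, and *Gstm2*, a glutathione transferase, both had contrasts of 0.74 (limma, adjusted p = 0.0277 and 0.0222), but the 2 other probes of *Gstm2* read 0.50 and 0.33 and did not pass (limma over all probes, adjusted p = 0.0711 and 0.130). *Gpx8*, a peroxidase of the endoplasmic reticulum, had a contrast of 0.81, and its 2 other probes read 0.74 and 0.94 and passed (limma over all probes, adjusted p = 0.0370 and 0.0187). *Cd59a* inhibits the membrane attack complex of complement. Its tissue difference was 0.22, -0.04, 0.77 and 0.09 in WT mice and 1.11, 0.82, 1.90 and 1.09 in KO mice, and KO mouse 2 lay just above WT mouse 3. The contrast of *Cd59a* was 0.97 ± 0.22 (limma, adjusted p = 0.0257).

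*H1f10*, a linker histone, and *H2bc9*, a histone H2B, had contrasts of 0.91 and 0.78 (limma, adjusted p = 0.0222 for both), although the probe of *H2bc9* may read other H2B genes. *Uchl3*, a ubiquitin hydrolase, was at 0.78 and *Ip6k2*, an inositol hexakisphosphate kinase, at 0.76, but a second *Ip6k2* probe read 0.36 and did not pass (limma over all probes, adjusted p = 0.277). *Rtl8b*, derived from a retrotransposon, had the largest contrast of the 12, 1.18 ± 0.31 (limma, adjusted p = 0.0342). Its KO effect was 0.48 in hippocampus and -0.70 in cortex, and neither passed alone. *Ccl21b*, a chemokine with near-identical copies, was at 0.77, and its cortical KO effect of -0.49 passed (limma, adjusted p = 0.0411) where the hippocampal one of 0.28 did not. Of these 12 genes, 8 passed in hippocampus, as did 8 of the 12 with the most negative contrasts.

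Markers of the choroid plexus, the secretory epithelium of the ventricles that borders the hippocampus, had the highest median of all lists. Only 6 of 19 on the array were detected in enough cortical arrays to be tested. Others that define this epithelium, such as *Folr1* and *Calml4*, were detected in 0 of 8 cortical arrays, and *Kcne2* and *Otx2* in 1. Their median contrast was 1.47, all 6 were above 0, and 2 passed. In bulk tissue more cells of a type and more RNA per cell cannot be told apart. *Msx1*, a homeobox factor, had a tissue difference of 0.52, 0.47, 0.83 and 0.25 in WT mice and 1.46, 1.48, 2.51 and 1.01 in KO mice, and a contrast of 1.10 ± 0.25 (limma, adjusted p = 0.0222). *Sostdc1*, a secreted antagonist of BMP and Wnt signals, had the largest contrast of all genes past the test, 1.85 ± 0.43 (limma, adjusted p = 0.0277). Its tissue difference was 1.38, 0.20, 2.05 and 0.10 in WT mice and 2.60, 2.71, 3.99 and 1.82 in KO mice. WT mouse 3 overlapped KO mouse 4, and *Sostdc1* was detected in 3 of the 8 cortical arrays. *Clic6* and *Kl*, at 1.89 and 1.08, did not pass (limma, adjusted p = 0.0541 and 0.0630). *Ttr*, the transthyretin carrier that this epithelium secretes, was looked at after the values were seen and had the largest contrast of the 6, 3.18 ± 1.16, which did not pass (limma, adjusted p = 0.0914).

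The mean level of the 6 markers was 1.46, 0.48, 2.49 and 0.64 in WT hippocampus and 2.81, 2.65, 3.58 and 2.07 in KO hippocampus. In cortex it was -0.14, 0.02, -0.14 and 0.84 in WT mice and 0.43, -0.05, -0.12 and -0.18 in KO mice. WT mouse 3 overlapped KO mouse 4 in hippocampus, WT mice 2 and 4 had the lowest hippocampal levels, and WT mouse 4 had the highest cortical level. With this mean as a covariate beside the mouse block, no gene had a higher and 1 gene, *Gbp2*, a lower contrast (limma, with 839 higher and 620 lower at an unadjusted p under 0.05), while the covariate itself differed between the groups. The median of the mitochondrial ribosome list was then 0.26, that of the respiratory chain 0.07, that of the cytosolic ribosomal proteins -0.02 and that of the immediate early genes 0.24. The part of these markers in the other results was not tested beyond this.

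Other cell type lists moved less. Of 8 ependymal and ciliated cell markers, all were above 0 with a median of 0.43 (0.26 without KO mouse 3), and *Dynlrb2*, a dynein light chain, passed at 0.66 (limma, adjusted p = 0.0401). *Igfbp2*, a carrier of insulin-like growth factors made in choroid plexus and meninges, passed at 1.33 ± 0.30 (limma, adjusted p = 0.0250), although WT mouse 3 and KO mouse 4 overlapped with a tissue difference of 0.80 in each. It was the 1 gene to pass among 21 meningeal and fibroblast markers and among 31 insulin and IGF signalling genes, whose medians were 0.09 and 0.04. None of 19 endothelial or 18 microglia and complement genes passed (limma, with 3 higher endothelial and 3 lower microglial genes at an unadjusted p under 0.05), and their medians were 0.14 and 0.13. *Cx3cr1*, the fractalkine receptor of microglia, was at -0.43 (limma, adjusted p = 0.0612). Of 20 astrocyte markers, *Sparcl1* and *Gja1* were lower at -0.56 and -0.39, and of 18 oligodendrocyte and myelin genes *Mal* was lower at -0.56, while a second *Mal* probe read -0.10.

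Neuronal identity genes followed the tissue labels. In WT mice 17 of 22 hippocampal subfield markers were higher in hippocampus and 2 in cortex, and 14 of 27 cortical layer markers were higher in cortex and 4 in hippocampus (limma). Their contrasts fell on both sides. Of the hippocampal list 3 of 22 were lower, *Man1a*, *Lmo3* and *C1ql3* at -0.56, -0.69 and -0.65, with a median of -0.05. A second *Lmo3* probe read -0.22 and did not pass. Of the cortical list *Fezf2*, *Stard8* and *Krt12* were higher at 0.52, 0.44 and 0.56 and *Bcl11b* lower at -0.57, with a median of 0.12, while a second *Stard8* probe read 0.0064. Among interneuron and neuropeptide genes *Npy2r*, a receptor of neuropeptide Y, and *Reln*, reelin, were lower at -0.68 and -0.46 (limma, adjusted p = 0.0222 and 0.0415). *Npy2r* was detected in 1 of 4 WT and 4 of 4 KO cortical arrays, so it entered the test through KO cortex, and its WT cortical level lay mostly at background. Of 188 zinc finger genes 2 were higher (*Zfp513* at 0.50 and *Zfp637* at 0.47) and 3 lower (*Zfp318* at -0.64, *Zfp148* at -0.59 and *Zfp780b* at -0.33, which was detected in no array of KO hippocampus or WT cortex), with a median of -0.08. Of 57 heat shock proteins and chaperones *Dnajc30* was higher at 0.45 and *Hspa4* lower at -0.52. Over all genes tested 2.48% were higher and 2.24% lower, and neither the zinc finger nor the chaperone list exceeded these shares.

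The cortical pieces differed in striatal genes. The mean of 16 striatal projection neuron genes was 1.23, 1.76, 1.49 and 1.58 in WT cortex and 1.55, 2.20, 2.10 and 1.46 in KO cortex, and 0.72 to 0.81 in all hippocampi. KO mice 2 and 3 had the highest cortical levels. The median contrast of this list was -0.24, and *Gng7* was the 1 gene of it to pass. The median was -0.14 without WT mouse 1, -0.13 without KO mouse 2, -0.14 without KO mouse 3, -0.38 without KO mouse 1 and -0.42 without KO mouse 4. *Rgs9*, which shuts off dopamine and opioid receptor signals in striatum, was at -0.84 (limma, adjusted p = 0.0652). The part of the striatal genes in the contrasts of other genes was not tested.

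**Figure D4:**
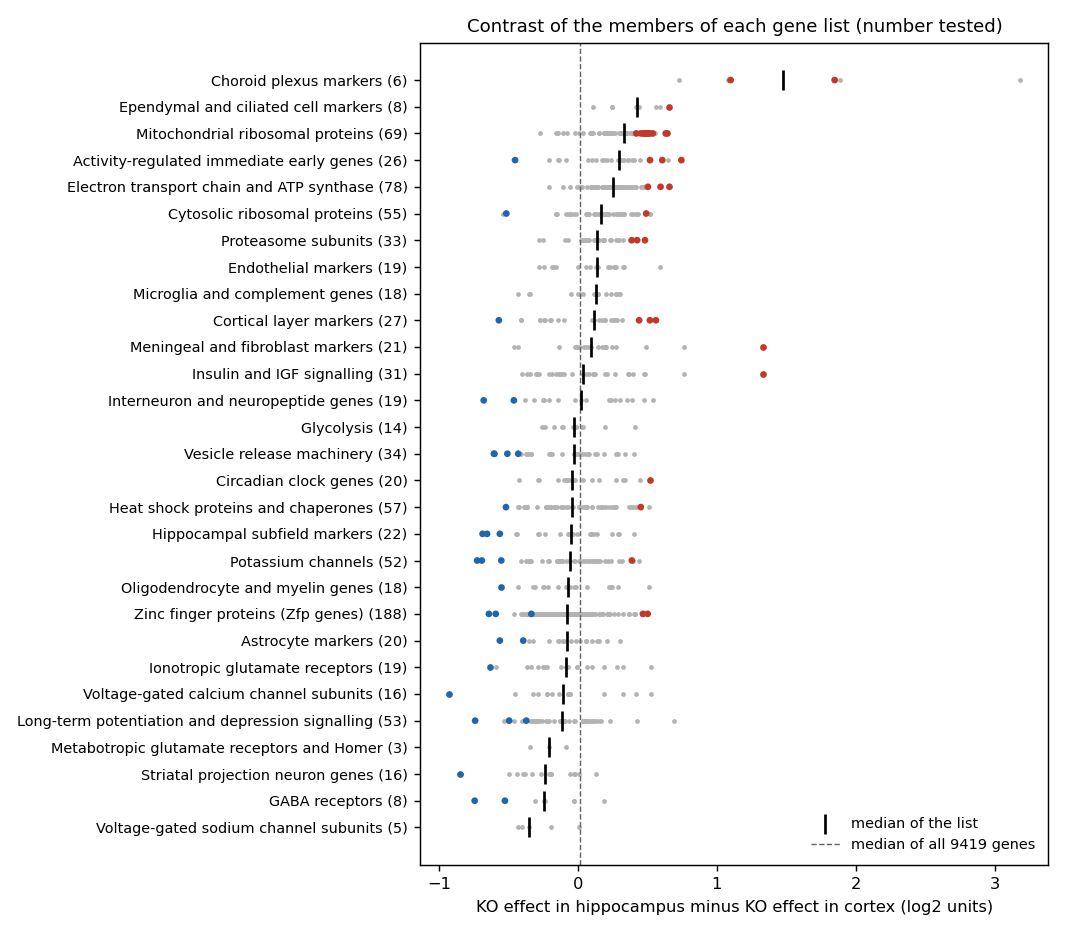
The contrast, in log2 units, of every tested member of 29 gene lists, with the number tested in parentheses. Red and blue points passed the test above and below 0, grey points did not, black marks are list medians, and the dashed line is the median of all genes (0.02); choroid plexus markers have the highest median (1.47) and sodium channel subunits the lowest (-0.35).

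The contrast ran with the length of the gene. Over 9415 genes with a length in the RefSeq table, Spearman's correlation across genes was -0.388 for the contrast, -0.365 for the hippocampal KO effect and 0.207 for the cortical one, and genes are not independent replicates. Genes were put into 5 groups of 1883 by length. The median contrast was 0.16 in the group of shortest genes, 0.08, -0.0032 and -0.06 in the next groups and -0.09 in the group of longest genes. The shortest group held 115 higher and 9 lower genes, and the longest held 13 and 97. The median length was 7.87 kb among higher genes, 61.9 kb among lower genes and 22.9 kb among all. The median length was 7.63 kb for the mitochondrial ribosome and 5.57 kb for immediate early genes, whose median contrasts were above 0, and 113 kb for calcium channel subunits, whose median was below 0. Other lists did not follow length. Sodium channel subunits had the lowest median contrast at 22.4 kb, zinc finger and astrocyte genes were below 0 at 16.4 and 13.1 kb, and cortical layer markers were above 0 at 44.7 kb. After each array was corrected for length by a loess curve, 109 genes were higher and 153 lower (limma).

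**Figure D5:**
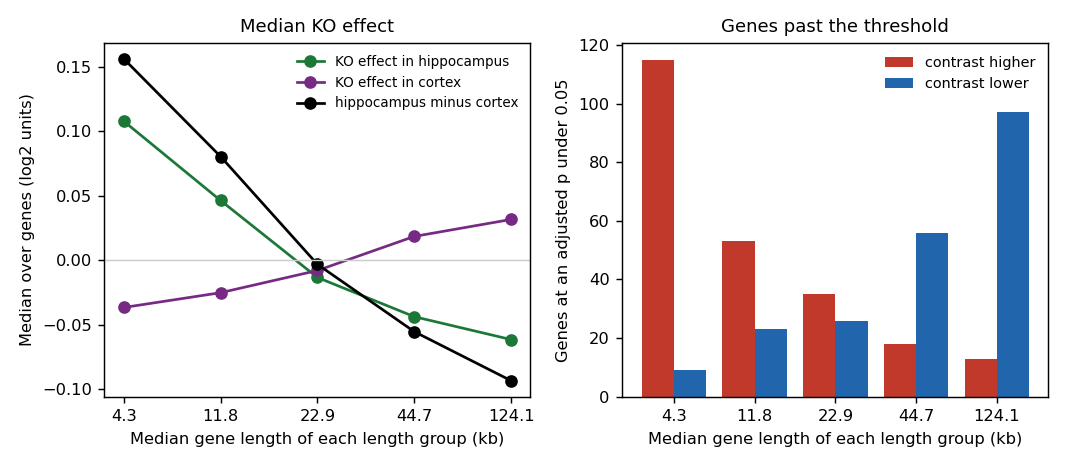
Left, the median KO effect in hippocampus (green), in cortex (purple) and their difference (black), in log2 units, for 5 groups of genes by length; the axis gives the median length of each group in kb. Right, the number of genes past the test in each group, with 115 higher (red) and 9 lower (blue) among the shortest and 13 and 97 among the longest.

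A small set of genes changed in both tissues. At an adjusted p under 0.05 in hippocampus and in cortex there were 12 genes, all with the same direction in both, and 6 of them, *Bhlhe40* included, lay on chromosome 6, which carries 5.13% of the genes tested. Their contrasts asked whether the size differed between the tissues, and 1 of the 12 passed. This was *Chl1*, a cell adhesion molecule of the L1 family on chromosome 6. Its level was 1.83, 1.35, 1.45 and 1.47 in WT and 2.59, 2.64, 2.46 and 2.65 in KO hippocampus. In cortex it was 1.15, 0.96, 0.96 and 0.83 in WT and 2.53, 2.80, 2.67 and 2.66 in KO mice. KO mice thus had nearly the same level in both tissues, and the WT level was lower in cortex. The KO effect was 1.06 in hippocampus and 1.69 in cortex, and the contrast was -0.63 ± 0.13 (limma, adjusted p = 0.0220).

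The other genes changed in both tissues had contrasts that did not pass. *Zfp239*, on chromosome 6, had KO effects of 0.25 and 0.58 and a contrast of -0.33 ± 0.11 (limma, adjusted p = 0.0633), with no overlap of mice. *Ide*, the insulin-degrading enzyme, had KO effects of -1.08 in hippocampus and -0.80 in cortex (limma, contrast adjusted p = 0.232). *Erdr1*, on the X chromosome, had KO effects of -1.87 and -1.84 and a contrast of -0.03 ± 0.37, the widest error of this set. *Cxcl12*, a chemokine on chromosome 6, was higher by 0.73 and 0.65, and its 2 other probes had contrasts of -0.12, and *Dcp1b*, an mRNA decapping factor on chromosome 6, had KO effects of -0.56 and -0.87 and a contrast of 0.32 (limma, adjusted p = 0.166). *Arsj*, a sulfatase, was higher by 0.62 and 0.92 with a contrast of -0.30 (limma, adjusted p = 0.184). *Abcc10*, *Fgfbp3*, *Ncapd2* and *Tmem267* had contrasts between -0.16 and 0.16.

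The KO effect in the 7 cerebellum arrays, which the contrast does not use, came from the same mice. Of 8948 genes also detected there, 1807 (20.2%) were higher and 1569 (17.5%) lower in KO cerebellum (limma on these arrays). Of the genes with a higher contrast, 183 of 228 were higher in KO cerebellum and none was lower. Of those with a lower contrast, 150 of 203 were lower and 1 was higher. Among the 24 genes of largest contrast without overlap of mice, 19 passed in cerebellum in the direction of their contrast, and *Ptpro*, *Gng7*, *Rapgef5*, *Wdr13* and *Ccl21b* did not, with cerebellar KO effects of -0.08, -0.05, -0.07, -0.12 and 0.08. The KO effect of *Sostdc1* in cerebellum was 1.60. The tissues share their mice, so these counts are not independent of the contrast.

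Within each genotype the tissues differed in many genes. Hippocampus and cortex differed in 1231 genes higher and 1125 lower in WT mice, and in 2409 and 1890 in KO mice (limma). Among the 234 genes of higher contrast, 53 were higher in cortex in WT mice and 12 in KO mice, and 10 were higher in hippocampus in WT mice and 187 in KO mice. Among the 211 of lower contrast, 73 were higher in hippocampus in WT mice and 16 in KO mice, and 15 were higher in cortex in WT mice and 145 in KO mice. These counts follow from the same arrays as the contrast. Of the 445 genes past the test, 129 had further detected probes. Of these 186 probes, 173 had the sign of the main probe, 47 passed with it and none passed against it (limma over all probes).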

How the data were processed

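RNA of hippocampus and cortex of 4 WT and 4 *Bhlhe40* KO mice was measured on Illumina BeadChips with 25697 probes. The authors extracted the hybridization intensity of each bead type in GenomeStudio and deposited these signals with a detection p-value for each probe, and for every array they also deposited the log signal as a Z score, which has no unit. The deposited scores were within 9.96e-05 of scores computed here. Between 52.6% and 55.5% of probes were detected in each array. Arrays have no read depth, and their number limits the precision.

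The tools were limma 3.58.1 and R 4.3.3. In each array log2 signals were centred and divided by their SD, then put back on a log2 scale by the arrays' average SD, 1.57. Probes with a detection p under 0.05 in at least 3 of 8 arrays of each tissue were kept, and the probe with the highest mean log2 signal stood for its gene. Of the probes, 23978 had 1 gene symbol. The 4 groups were fitted with lmFit, the mouse being a random block by duplicateCorrelation (consensus correlation 0.0297), and eBayes with a trend. Samples were grouped, and tissues of 1 mouse matched, by the labels. The deviations of both tissues of a mouse from their group means correlated at -0.245 to 0.212 across genes. Named genes were *Bhlhe40*, the 12 largest contrasts on each side past the test without overlap of mice, up to 4 genes of each of 29 lists by smallest p, and genes past the test in both tissues. The lists, the genes and this comparison were chosen with earlier results of these data known. No set test was run. The alternatives were neqc (offset 16), the deposited Z scores, quantile normalization, other detection filters, the mean of probes, other uses of the mouse as block, all 23 arrays, an unmoderated test, arrays or mice left out, choroid plexus markers as a covariate, a gene length correction and the study's thresholds. The computation was tested on simulated data. Positions of arrays on chips were not used here.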

Additional observations from a re-analysis of the deposited data

Results flagged for a closer look

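The KO effect differed between hippocampus and cortex, by the test of the difference itself, in 234 genes higher and 211 genes lower in hippocampus (limma, adjusted p under 0.05). Both counts were 0 without WT mouse 4.

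Genes detected in hippocampus and not in at least 3 cortical arrays could not enter the contrast. There were 415 of them, each detected in at least 3 of 8 hippocampal arrays, so a gene could enter through KO arrays alone. Over the 9419 genes of the contrast, 5.72% were higher and 3.67% lower in KO hippocampus. In a fit of the 8 hippocampal arrays 32 of the 415 were higher and 14 lower in KO mice (limma). The 2 with the largest KO effects were *Ecrg4* at 1.92 and *Aqp1*, the water channel of the choroid plexus, at 1.64 (limma, adjusted p = 0.0106 and 0.0184), followed by *Folr1* at 1.42, *Kcne2* at 1.34 and *Otx2* at 1.28, which are also markers of that epithelium. Of 301 genes detected in cortex and not in hippocampus, none passed in cortex (limma, 27 at an unadjusted p under 0.05).

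In 98 genes of the text, 1 mouse stood apart from the other 3 of its genotype in 12 of 196 groups by Dixon's criterion, which chance meets in about 1 of 20 groups. Among KO mice, mouse 3 was at -0.14 in *Rapgef5* (others 0.22 to 0.27), -0.83 in *Zfp239* (others -0.61 to -0.57) and 0.026 in *Prkg1* (others -0.06 to -0.05). KO mouse 1 was at 0.085 in *Psma7* (others 0.55 to 0.58), 0.029 in *Lmo3* (others -0.37 to -0.34) and -0.16 in *Gja1* (others -0.31 for all). KO mouse 2 was at -0.0026 in *Fosb* (others -0.37 to -0.31). Among WT mice, mouse 3 was at 0.44 in *Rapgef5* (others 1.00 to 1.09) and 1.03 in *Kctd12* (others 1.33 to 1.35). WT mouse 1 was at 0.68 in *Dynlrb2* (others 0.20 to 0.23), mouse 2 at 0.53 in *Bcl11b* (others 0.89 to 0.93) and mouse 4 at 0.28 in *Mal* (others 0.66 to 0.71).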

How the results depend on the processing

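With 4 mice per genotype the calls depend on which mice are included. Leaving out each mouse gave 0 to 684 genes with a higher and 0 to 518 with a lower contrast, 1450 to 2230 genes without overlap of mice (1239 with all 8), 105 to 605 higher and 74 to 363 lower genes in hippocampus, and 6 to 43 higher and 6 to 46 lower genes in cortex. Without the cortex array of KO mouse 3 there were 372 higher and 362 lower contrasts, and 39 higher and 42 lower genes in cortex. The fit with no replicate block gave 171 higher and 169 lower contrasts, and the mouse as a fixed replicate block gave 171 and 184. Of the latter, 143 and 148 were among the 234 and 211 genes past the main test. The unmoderated test on the 8 per-mouse differences gave 0 and 0, with 1023 and 915 at an unadjusted p under 0.05 and a smallest adjusted p of 0.0662. Without a detection filter, which raised the genes tested to 16593, there were 117 and 139. The mean of all detected probes gave 9 higher genes in cortex. With the choroid plexus covariate there were 0 higher and 1 lower contrast, 4 higher and 4 lower genes in hippocampus (among them *Bhlhe40*, *Gbp2*, *Ide* and *Chl1*) and 22 higher in cortex. The length correction gave 109 higher contrasts and 326 higher genes in hippocampus. The study's thresholds gave 1314 and 1121 contrasts, 1385 higher and 1127 lower genes in hippocampus and 173 higher and 159 lower in cortex. The causes were not tested. Counts of contrasts stayed within 1.5 times under neqc, quantile normalization, the stricter filter, the mean of probes, both other uses of the mouse block and all 23 arrays. The deposited Z scores gave the same counts, as they had to, because the main values are these scores times a constant. Neqc and quantile normalization had fewer higher than lower contrasts, 220 and 284, and 216 and 261. Of the 29 list medians, 23 moved by over 1.5 times and 5 of these changed sign when some mouse was left out. Among the 98 genes of the text with a contrast, those that changed sign did not pass: *Erdr1* (0.039 with neqc and -0.17 to 0.17 without each mouse, above 0 without WT mouse 3, WT mouse 4 or KO mouse 4), *Abcc10* (-0.28 to 0.0051 without each mouse), *Ncapd2* (-0.046 with neqc, -0.050 with the mean of probes, -0.0086 without the cortex array of KO mouse 3 and up to 0.10 without each mouse), *Fgfbp3* (-0.043 with the length correction), *Cxcl12* (-0.055 with the mean of probes and -0.056 with the choroid plexus covariate), and with that covariate *Clic6* (-0.21), *Kl* (-0.14) and *Ttr* (-0.71).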
